A study of Homo sapiens with 6 samples.

Results

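The 10 transcripts described here encode the core engine of the mammalian cell cycle: the cyclins CCND1, CCNE1, CCNA2 and CCNB1, the cyclin-dependent kinases CDK1, CDK2, CDK4 and CDK6, the pocket protein RB1 and the transcription factor E2F1. They were chosen by a list of 1 main Ensembl transcript per gene, and all 10 were present among the 203028 transcripts of each library. The pairing of transcript and gene comes with that list, and other transcripts of the same genes were not analysed here, so a value below is the level of 1 transcript and not of a gene. The libraries are polyadenylated RNA of HEK293 cells, 3 from cells that received a scrambled control shRNA and 3 from cells that received an shRNA against PRPF39. In both groups the shRNA came from a lentivirus and cells with an integrated construct were selected with puromycin. HEK293 is an established human embryonic kidney line made with adenovirus DNA, and it carries the viral E1A protein, which binds RB1 and its relatives, a limit on the line as a model of this pathway. PRPF39 is a protein associated with the U1 small nuclear ribonucleoprotein, which recognises 5′ splice sites. Its own transcripts, and markers of the cell line, were not analysed here, and the knockdown itself is thus taken from the labels alone.

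As background, D-type cyclins such as CCND1 bind CDK4 or CDK6 in G1 and begin the phosphorylation of RB1, which otherwise holds E2F1 and its relatives inactive. Freed E2F factors switch on genes for entry into S phase, among them CCNE1, CCNA2, CDK1 and E2F1 itself. CCNE1 with CDK2 carries cells into S phase, CCNA2 works with CDK2 in S phase and with CDK1 later, and CCNB1 with CDK1 drives mitosis. The list was proposed as a readout of proliferation. No cell counts or cell cycle phases were among the files used here, and in bulk RNA fewer cells in a phase and less of a transcript per cell cannot be told apart.

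Of the 10 genes, 8 had an entry in the RefSeq promoter table (GRCh38.p14). The 250 bases before the start are shown for CCNA2 and E2F1, which were lower with PRPF39 shRNA in every library, and for CDK6, which was higher. Each is read 5′ to 3′ on the gene's strand. Capitals mark matches, on either strand, to a CCAAT box (CCAAT), to the cell cycle homology region CHR (TTTGAA or CTTGAA) and to an E2F site (TTTGGCGC, TTTCGCGC, TTTCCCGC or TTTGCCGC). The windows are chr4:121823884-121824133 on the minus strand for CCNA2, chr20:33686386-33686635 on the minus strand for E2F1 and chr7:92836574-92836823 on the minus strand for CDK6, each just outside the annotated gene.
CCNA2: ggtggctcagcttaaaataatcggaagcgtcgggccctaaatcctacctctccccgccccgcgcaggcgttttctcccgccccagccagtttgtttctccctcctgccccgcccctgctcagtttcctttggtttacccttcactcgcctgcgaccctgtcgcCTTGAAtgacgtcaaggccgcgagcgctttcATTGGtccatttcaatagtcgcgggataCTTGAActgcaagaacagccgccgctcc
E2F1: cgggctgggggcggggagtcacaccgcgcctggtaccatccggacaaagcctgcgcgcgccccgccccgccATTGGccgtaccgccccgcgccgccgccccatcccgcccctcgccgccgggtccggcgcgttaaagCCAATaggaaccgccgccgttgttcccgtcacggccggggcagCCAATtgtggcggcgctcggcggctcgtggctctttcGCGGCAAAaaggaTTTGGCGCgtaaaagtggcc
CDK6: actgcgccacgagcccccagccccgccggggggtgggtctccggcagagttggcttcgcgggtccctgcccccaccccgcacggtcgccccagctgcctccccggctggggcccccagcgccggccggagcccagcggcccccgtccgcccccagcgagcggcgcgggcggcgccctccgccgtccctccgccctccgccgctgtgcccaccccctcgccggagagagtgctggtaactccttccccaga
The CCNA2 window held 2 CHR matches, 28 and 87 bases before the start, and 1 CCAAT match. E2F1 held 2 E2F matches, 20 and 33 bases before the start on opposite strands, and 3 CCAAT matches. None of the 3 motifs occurred in the CDK6 window. Whether matches go with the direction of change was not tested. CCNB1 held 2 CCAAT matches, and the 2 entries of CDK1 held CHR and CCAAT matches and 1 of them an E2F match. CCNE1, CDK4 and a further entry of CDK6 held no match. The RB1 entry, which lies inside the gene, held none either. Over the 35116 windows of the same length, 32.0% held a CCAAT box, 20.9% a CHR and 2.79% an E2F match. These matches describe letters in a window, and binding was not measured.

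The level of each transcript is given in TPM, the deposited unit of transcript abundance that corrects for each library's effective transcript length. CDK1 was the most abundant, at 224 to 334 TPM over the 6 libraries, and CCNE1 the least, at 5.42 to 8.05 TPM. In the control libraries the means descended from CDK1 (296 ± 41.4 TPM) to CDK4 (78.1 ± 6.997), CCNA2 (77.7 ± 2.29), CDK2 (60.1 ± 3.84) and CCNB1 (38.3 ± 4.40), all as mean ± SD with n = 3. E2F1 (29.6 ± 2.43 TPM), RB1 (23.6 ± 5.30), CCND1 (11.9 ± 2.50), CDK6 (11.5 ± 2.26) and CCNE1 (7.21 ± 0.73) followed. Neighbours whose control libraries overlapped were CDK4 and CCNA2, E2F1 and RB1, and CCND1 and CDK6. The order of the means was the same with PRPF39 shRNA except that CDK6 stood above CCND1. CDK6 did so in 3 of 3 PRPF39 shRNA libraries, against 1 of 3 control libraries. CDK4 stood above CCNA2 likewise in 3 of 3 PRPF39 shRNA libraries, against 1 of 3 control libraries, with the order of their means kept. Levels of different transcripts depend on the effective length, which was 42.9% to 45.4% of the annotated length for CDK1, 58.3% to 59.9% for CDK6 and 114% to 116% for E2F1. Per base of annotated length, E2F1 moved above CCNB1 and CCND1 above CDK6 in the mean of all libraries, with the rest of the order kept.

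**Figure D1:**
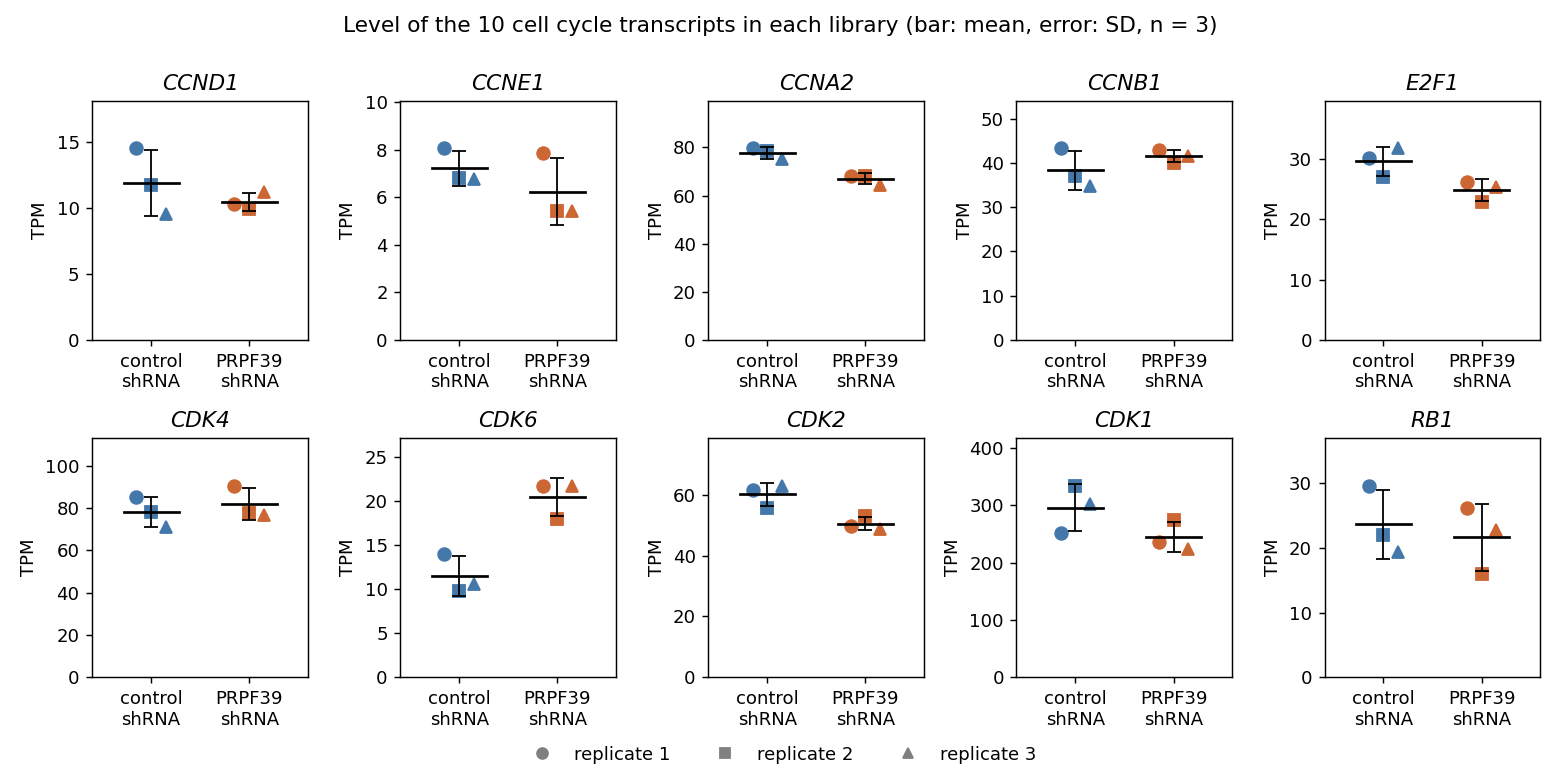
TPM of each transcript (vertical axes, from 0) in the 3 control shRNA and 3 PRPF39 shRNA libraries, with 1 point per library, the mean as a bar and the SD as an error bar. CDK6 lies at 9.74 to 14.03 TPM in control and 18.0 to 21.7 TPM in PRPF39 shRNA libraries, and CCNA2, CDK2 and E2F1 are lower with PRPF39 shRNA without overlap.

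With PRPF39 shRNA, CDK6 rose, and none of the other 9 passed the test, which ran over all transcripts. CDK6 is one of the 2 kinases that pair with D-type cyclins in G1, and it lies at chr7:92604921-92836573 in GRCh38.p14. The groups were compared with edgeR's quasi-likelihood test over 97571 transcripts that passed a filter on low counts, and a Benjamini-Hochberg adjusted p under 0.05 was called. All 10 transcripts passed that filter. In that test 0.904% of transcripts were called, 0.443% higher and 0.461% lower. Of the 10, 1 was called higher and 0 lower, and 4 had an unadjusted p under 0.05, against 16.1% of all transcripts tested and 35.9% of those averaging 5 CPM or more, so 4 of 10 is near the share at their abundance. Their median log2 fold change was -0.22, and that of all transcripts tested was -0.02. Against the transcripts averaging 5 CPM or more, which is the abundance of all 10, the medians were -0.27 and -0.00031.

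The CDK6 transcript, ENST00000265734 (11612 bases), stood at 14.03, 9.74 and 10.6 TPM in control replicates 1, 2 and 3, and at 21.7, 18.0 and 21.7 TPM in PRPF39 shRNA replicates 1, 2 and 3. The lowest PRPF39 shRNA library lay above the highest control library. These values rested on 9508 to 12113 estimated reads in control and 11783 to 30057 in PRPF39 shRNA libraries. The log2 fold change was 0.81 ± 0.10 (SE; adjusted p = 0.0348, edgeR), or 1.75-fold with a 95% interval of 1.48 to 2.07. The change was larger in size than that of 77.6% of all transcripts tested and of 92.5% of those averaging 5 CPM or more (counts scaled to library size). With any 1 library left out the log2 fold change stayed between 0.76 and 0.89, while the adjusted p rose to 0.0562 to 0.166 (edgeR) in all 6 of these fits. When the test was limited to the 20216 transcripts averaging 5 CPM or more, CDK6 passed with all libraries (adjusted p = 0.00546, edgeR). It also passed in each of the 6 fits with 1 library left out (adjusted p = 0.00561 to 0.0296, edgeR), which were added after the data were seen. With the replicate number as a block, CDK6 was not called over all transcripts tested (adjusted p = 0.187, edgeR). At 5 CPM or more, in a fit also added later, it was (adjusted p = 0.00734, edgeR).

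CDK4 (ENST00000257904), the other kinase of that step, did not pass. It stood at 85.0, 78.2 and 71.0 TPM in control and at 90.5, 77.8 and 76.9 TPM in PRPF39 shRNA libraries, and the groups overlapped. Its log2 fold change was 0.03, with a 95% interval of -0.24 to 0.31 (adjusted p = 0.926, edgeR), and its sign turned in 8 of 23 alternatives. Within a library, the ratio of CDK4 to CDK6 in TPM was 6.06, 8.03 and 6.68 in control replicates 1, 2 and 3 and 4.17, 4.33 and 3.55 in the PRPF39 shRNA libraries. CDK6 thus made up 11.1% to 14.2% of the summed TPM of both kinases in control and 18.7% to 21.98% with PRPF39 shRNA. This share depends on the effective lengths and was not computed per base of annotated length. The summed TPM of both kinases overlapped between the groups, at 81.6 to 99.0 in control and 95.8 to 112 with PRPF39 shRNA. CCND1 (ENST00000227507), the cyclin of both kinases, stood at 14.5, 11.7 and 9.52 TPM in control and at 10.3, 9.91 and 11.2 TPM in PRPF39 shRNA libraries, with a log2 fold change of -0.21 and a 95% interval of -0.53 to 0.11 (adjusted p = 0.497, edgeR). The PRPF39 shRNA values of CCND1 lay within the range of the control values.

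CCNA2, CDK2 and E2F1 were lower in all PRPF39 shRNA libraries than in any control library, by 14% to 16% of the mean TPM. They are grouped here by that lack of overlap and not by step of the cycle or size of change. The mean TPM of CDK1, CCNE1, CCND1 and RB1 was lower as well (-17.3%, -13.5%, -12.1% and -8.6%), with overlap between the groups. That of CCNB1 and CDK4 was higher (8.3% and 4.7%), also with overlap. CCNA2, CDK2 and E2F1 were not called in the test over all transcripts. These passed narrowly when the test was limited to transcripts averaging 5 CPM or more, which called 17.7% of 20216 transcripts, 8.55% higher and 9.13% lower. That test called 4 of the 10 transcripts, these as lower and CDK6 as higher. Library scaling and spread were estimated anew in it, so more changed than the number of transcripts tested. The log2 fold changes of all 10 moved downward, that of CDK4 from 0.03 to -0.014. The falls of CCNA2, CDK2 and E2F1 were of modest size for that set, since 59.2% to 64.1% of its transcripts had a smaller change.

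CDK2 (ENST00000266970), the kinase partner of CCNE1 and CCNA2, stood at 61.7, 55.7 and 62.9 TPM in control and at 49.7, 53.0 and 48.8 TPM in PRPF39 shRNA libraries. The closest libraries of the groups, control replicate 2 and PRPF39 shRNA replicate 2, were 55.7 and 53.0 TPM. The log2 fold change was -0.28 ± 0.09 (SE; adjusted p = 0.207, edgeR) over the whole table and -0.33 ± 0.09 (SE; adjusted p = 0.0453, edgeR) at 5 CPM or more. CCNA2 (ENST00000274026), the S phase and G2 cyclin, stood at 79.6, 78.4 and 75.1 TPM in control and at 68.2, 68.3 and 64.3 TPM in PRPF39 shRNA libraries. In TPM its libraries differed within each group by less than the groups did. In CPM, which is closer to the counts tested, CCNA2 spread more widely in control. It stood at 112, 135 and 118 CPM there and at 104, 107 and 95.3 CPM in PRPF39 shRNA libraries. Its log2 fold change was -0.26 ± 0.10 (SE; adjusted p = 0.269, edgeR) over the whole table and -0.30 ± 0.09 (SE; adjusted p = 0.0466, edgeR) at 5 CPM or more. E2F1 (ENST00000343380), the transcription factor restrained by RB1, stood at 30.1, 26.9 and 31.7 TPM in control and at 26.2, 22.8 and 25.4 TPM in PRPF39 shRNA libraries. Control replicate 2 and PRPF39 shRNA replicate 1 were close, at 26.9 and 26.2 TPM. Its log2 fold change was -0.29 ± 0.09 (SE; adjusted p = 0.208, edgeR) over the whole table and -0.34 ± 0.10 (SE; adjusted p = 0.0486, edgeR) at 5 CPM or more. The calls of CDK2, CCNA2 and E2F1 at that abundance held without control replicate 1 (adjusted p = 0.0276 to 0.0313, edgeR) and were lost without any other library, with adjusted p from 0.0641 to 0.182 (edgeR). DESeq2 called CDK6 alone of the 10, and its adjusted p was 0.0668 for CDK2, 0.143 for CCNA2 and 0.0619 for E2F1. It called 9.25% of the 97571 transcripts, a share that also counts those its own filter left without an adjusted p.

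**Figure D2:**
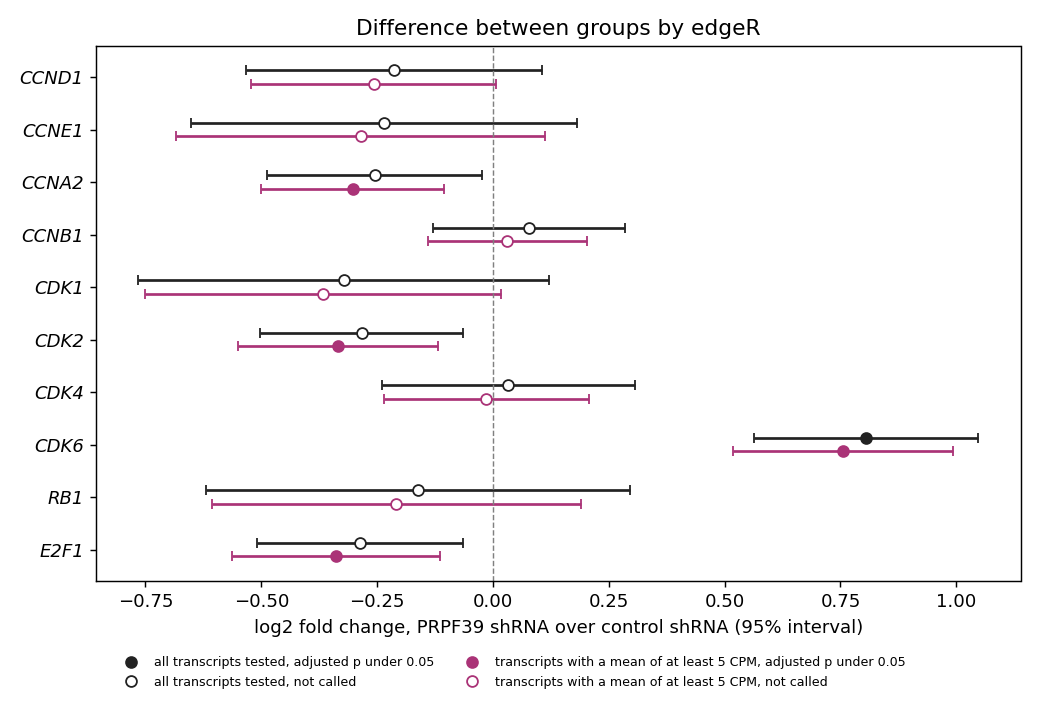
Log2 fold change of each transcript (horizontal axis, PRPF39 shRNA over control shRNA) with its 95% interval from edgeR, over all 97571 transcripts tested (black) and over the 20216 averaging 5 CPM or more (purple), where filled points have an adjusted p under 0.05. CDK6 lies apart on the right at 0.81 and 0.76, and CCNA2, CDK2 and E2F1 are filled only in the second test.

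The other transcripts overlapped between groups. CDK1 (ENST00000395284), the mitotic kinase, stood at 252, 334 and 302 TPM in control and at 236, 274 and 224 TPM in PRPF39 shRNA libraries. Control replicate 1 lay below PRPF39 shRNA replicate 2, and the 2 other controls lay above all PRPF39 shRNA libraries. CDK1's log2 fold change was -0.32, with a 95% interval of -0.77 to 0.12 (adjusted p = 0.460, edgeR). At a mean of at least 5 CPM it was called only without control replicate 1 (log2 fold change -0.53, adjusted p = 0.0243, edgeR). CCNB1 (ENST00000256442), the cyclin that partners CDK1 in mitosis, stood at 43.3, 37.0 and 34.8 TPM in control and at 42.9, 40.1 and 41.6 TPM in PRPF39 shRNA libraries. Its log2 fold change was 0.08, with a 95% interval of -0.13 to 0.29 (adjusted p = 0.729, edgeR), the narrowest of the 10.

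CCNE1 (ENST00000262643), which activates CDK2 at the start of S phase, stood at 8.05, 6.80 and 6.78 TPM in control and at 7.85, 5.44 and 5.42 TPM in PRPF39 shRNA libraries. PRPF39 shRNA replicate 1 lay within the control range and the other 2 below it. For CCNE1 the log2 fold change was -0.24, with a 95% interval of -0.65 to 0.18 (adjusted p = 0.574, edgeR). RB1 (ENST00000267163), the pocket protein that CDK4, CDK6 and CDK2 phosphorylate, stood at 29.5, 21.9 and 19.3 TPM in control and at 26.0, 16.0 and 22.7 TPM in PRPF39 shRNA libraries. Its libraries spread widely in both groups, and the log2 fold change was -0.16 with a 95% interval of -0.62 to 0.30 (adjusted p = 0.748, edgeR). The intervals of 9 of the 10 transcripts, all but CDK6, lay within a 2-fold change in either direction.

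Over the 10 transcripts, 4 had no overlap in TPM between the groups, 1 higher and 3 lower (exact two-sided permutation p = 0.1 each, the smallest that 3 libraries against 3 allow). Of all transcripts tested 23.1% had none (11.9% higher and 11.3% lower), and of those averaging 5 CPM or more 36.1% (21.8% higher and 14.3% lower), so 4 of 10 is near the share of transcripts of like abundance. The log2 fold change was below 0 for 7 of the 10, and the median of all transcripts tested was near 0, at -0.02. At 5 CPM or more it was below 0 for 8 of the 10, with a median of -0.00031 for that set. The share of all transcripts below 0 was not counted. The 7 below 0 in the test over all transcripts kept that sign in all 23 alternatives, though not their size. The alternatives draw on the same 6 libraries and are no separate support. With 1 library left out, RB1 ran from -0.32 to -0.0015 (the latter without PRPF39 shRNA replicate 2), CCNE1 from -0.44 (without PRPF39 shRNA replicate 1) to -0.12 (without PRPF39 shRNA replicate 3), and CDK1 from -0.48 (without control replicate 1) to -0.14 (without control replicate 2). The summed TPM of the 10 was 618, 660 and 624 in control and 579, 585 and 542 in PRPF39 shRNA libraries, and CDK1 alone held a large part of it. Without CDK1 the sums overlapped, at 322 to 366 in control and 311 to 344 with PRPF39 shRNA. Grouped by step, the G1 transcripts (CCND1, CDK4, CDK6 and RB1) made up 19.8% ± 2.97 of the sum in control and 23.6% ± 2.53 with PRPF39 shRNA (SD, n = 3 each). The S to M transcripts (CCNA2, CCNB1 and CDK1) made up 64.9% ± 3.81 and 62.0% ± 2.90, and the G1/S transcripts (CCNE1, CDK2 and E2F1) 15.3% ± 1.53 and 14.3% ± 0.415. The libraries of the groups overlapped in each of these shares. The shares depend on the effective length, which was 42.9% to 45.4% of the annotated length for CDK1. They were not computed per base of annotated length.

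Ratios within a library do not depend on how libraries are scaled, and 7 were compared. CDK4 to CDK6 was the only ratio whose groups did not overlap, at a log2 mean of 2.78 ± 0.21 in control and 2.001 ± 0.15 with PRPF39 shRNA (SD, n = 3 each; exact two-sided permutation p = 0.1, adjusted p = 0.467 over the 7 ratios). With 3 libraries against 3 the smallest p of this test is 0.1, so it cannot pass at 0.05. CCNA2 to CDK2 was 1.19 to 1.41 in control and 1.29 to 1.37 in PRPF39 shRNA libraries, so the PRPF39 shRNA values lay within the control range. CDK1 to CDK2 was 4.08 to 5.99 in control and 4.60 to 5.17 with PRPF39 shRNA. CCNB1 to CDK1 was 0.111 to 0.172 in control and 0.146 to 0.185 with PRPF39 shRNA, a log2 difference of 0.39 (exact permutation p = 0.2, adjusted p = 0.467). E2F1 to RB1, the factor over its inhibitor, was 1.02, 1.23 and 1.64 in control and 1.01, 1.43 and 1.12 in PRPF39 shRNA libraries, so the groups overlapped. CCND1 to CDK4 was 0.134 to 0.171 in control and 0.114 to 0.146 with PRPF39 shRNA, and CCNE1 to CDK2 was 0.108 to 0.131 and 0.103 to 0.158.

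**Figure D3:**
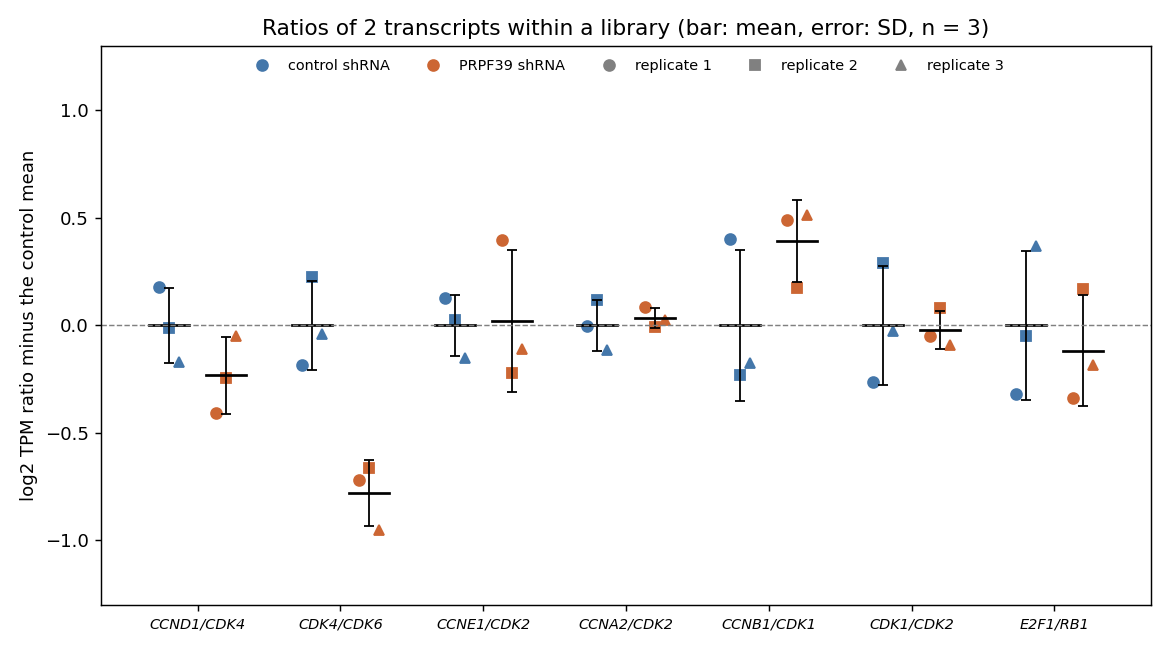
Log2 of the TPM ratio of 2 transcripts within each library, less the mean of the control libraries (vertical axis), for the 7 ratios, with 1 point per library, the group mean as a bar and the SD as an error bar. Only the ratio of CDK4 to CDK6 separates the groups, by -0.78 on the log2 scale.

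Likeness between transcripts was measured as the root mean square difference of their log2 CPM, each centred over the 6 libraries, as a description. The measure includes the difference between the groups, so it restates the fold changes in part. CCNA2 and CDK2 were the closest pair (0.0730), followed by CCNB1 and CDK4 (0.0769), and the transcript most like E2F1 was CDK2 (0.0927). The transcript most like CDK1 was CCNA2 (0.148), and for CCNE1 it was E2F1 (0.170). CCND1 was most like CCNA2 (0.168) and RB1 most like CCND1 (0.195). CDK6 had no close neighbour, the nearest being CCNB1 at 0.379.

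**Figure D4:**
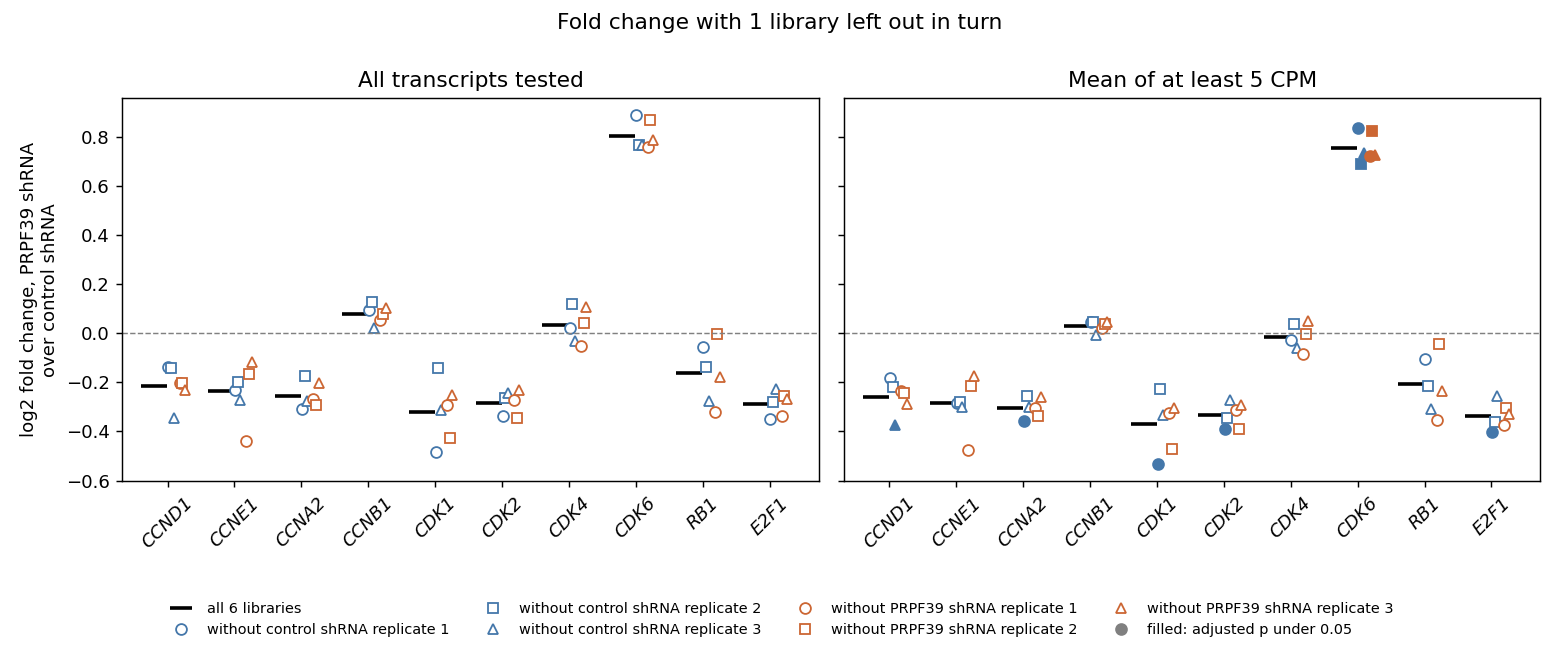
Log2 fold change of each transcript (vertical axis) with all 6 libraries (black bar) and with each library left out in turn (points), over all transcripts tested (left) and over those averaging 5 CPM or more (right), where filled points have an adjusted p under 0.05. CDK6 stays between 0.69 and 0.89 in all of these fits and is filled only on the right.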

How the data were processed

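Polyadenylated RNA of 6 HEK293 libraries, 3 per group by their titles, came as 1 table of transcripts each. The authors deposited estimated counts, unscaled, and TPM values per effective length, per the file headers. The submitters' processing notes name cutadapt 2.1, STAR 2.7.9a, Salmon 0.11.1, DESeq2 1.32.0 and build hg38, without options or annotation release. Reads matching several transcripts are shared between them by the quantifier's model, and that uncertainty entered only as spread between libraries. Totals ran from 113747941 to 246491084 estimated counts.

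Counts were rounded and tested with edgeR 4.0.16 in R 4.3.3 (filterByExpr with minimum count 10, TMM, quasi-likelihood test of group, Benjamini-Hochberg adjustment over all transcripts tested); the script was tested on simulated data. The standard error is the log2 fold change over the square root of F. Log2 CPM used a prior count of 2. Alternatives were another low-count filter, 5 CPM, RLE, upper quartile, DESeq2 1.42.0, limma-voom (limma 3.58.1), effective-length offsets, limma on log2(TPM + 1) or log2(TPM + 0.1) at a mean of at least 1 TPM, a replicate block and leaving out each library. The labels do not say whether replicates were separate cultures, so a p-value here reflects how far these libraries spread, and that spread may be technical alone. No 2 libraries agreed within sampling noise (chi-square per degree of freedom at least 29.2).

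The 10 transcripts, all of them named whatever their values, and the lists were chosen with earlier results of these data known. A list of other cell cycle genes was planned and not analysed here, since transcript IDs were not paired with genes.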

Additional observations from a re-analysis of the deposited data

How the results depend on the processing

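Over all transcripts tested, 1 of the 10 transcripts, CDK6, was called, and the same number with the filter of 1 read, RLE, upper quartile, DESeq2, limma-voom, effective-length offsets and both TPM fits. The number was 4 at 5 CPM or more, and 0 with the replicate block and without any 1 library (0 to 0 over the 6 fits). With the replicate block the log2 fold change of CDK6 was 0.81 (adjusted p = 0.187, edgeR), and 0 transcripts of the whole table were called (14264 at an unadjusted p under 0.05, edgeR), against 882 without it (15743). The deviations of same-numbered libraries correlated at 0.0667, 0.0212 and 0.00574 over all transcripts tested (numbers 1, 2 and 3). At 5 CPM or more they correlated at 0.158, 0.0313 and -3.06e-05. These were not over 0.1 for every number, so the numbers were not taken as pairs. Over all transcripts tested, control libraries 1 and 2 correlated best with their own number and control library 3 did not. Fits at 5 CPM that also left out a library or used the block were added after the data were seen, and they called 1 to 5 of the 10 when a library was left out and 1 (CDK6, adjusted p = 0.00734, edgeR) with the block, where CCNA2, CDK2 and E2F1 had adjusted p of 0.0638, 0.0654 and 0.0681 (edgeR). Without control replicate 1 the 5 were CDK6, CCNA2, CDK1, CDK2 and E2F1, and without control replicate 3 the 2 were CDK6 and CCND1 (adjusted p = 0.0458, edgeR). For the whole table the calls were 3574 at 5 CPM, 9024 with DESeq2, 1957 and 1622 with limma on log2(TPM + 1) and log2(TPM + 0.1), and 0 to 22 with a library left out. The share of higher calls was 49.0% with TMM and 58.3% with upper quartile (608 of 1042). The log2 fold change of CDK4 reversed to -0.014 at 5 CPM, to -0.030 and -0.051 without control replicate 3 and PRPF39 shRNA replicate 1, and at 5 CPM to -0.016 with the block, and to -0.028, -0.059, -0.086 and -0.0025 without control replicates 1 and 3 and PRPF39 shRNA replicates 1 and 2. CCNB1 reversed to -0.0067 at 5 CPM without control replicate 3. The cause of these differences was not tested. Ratios kept their direction per base of annotated length (-0.77 for CDK4 to CDK6). With the numbers as pairs (replicate block) the mean difference is the same by arithmetic (-0.78 for CDK4 to CDK6), so it tests nothing. With a library left out the log2 ratio differences ran from -0.32 to -0.14 for CCND1 to CDK4, -0.87 to -0.67 for CDK4 to CDK6, -0.17 to 0.14 for CCNE1 to CDK2, -0.024 to 0.094 for CCNA2 to CDK2, 0.28 to 0.59 for CCNB1 to CDK1, -0.15 to 0.12 for CDK1 to CDK2, -0.28 to 0.067 for E2F1 to RB1.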

Other observations

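The estimated reads of E2F1 were whole numbers in all 6 libraries (to within 0.0005 of a read), and those of CCNA2 in 2 of 6. Those of the other 8 transcripts were fractional in every library, which means that reads were shared with other transcripts in the quantifier's estimate. CDK6 is among these 8, and so are CDK1 and CDK2. The effective length of CDK6 differed little between the groups, with means of 6896 bases in control and 6863 bases in PRPF39 shRNA libraries, and with effective-length offsets its log2 fold change was 0.82 (adjusted p = 0.0296, edgeR).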
